A study of Mus musculus with 24 samples.

Results

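Timed sleep restriction was compared with undisturbed sleep in the mediobasal hypothalamus of mice killed at zeitgeber time 13 (ZT13), where zeitgeber time counts hours from the start of the light phase. The comparison was defined by the array titles and holds 6 of the 24 arrays of the study: 3 of sleep-restricted mice (labelled TSR) and 3 of control mice (labelled CON), with 3 mice per group and time. TSR mice were kept awake by gentle handling between ZT0 and ZT6 on 5 days in a row, slept freely for 2 days and were restricted again for 5 days, while CON mice were left alone. All mice are labelled as of the background strain C57BL76J, and neither genotype nor age is among the labels used here. The other 18 arrays hold the same groups at ZT1, ZT7 and ZT19, and how many hours separated the last restriction from tissue collection is not given. ZT13 lies after the daily hours of restriction, so the comparison asks which transcripts differed at a time outside those hours.

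The mammalian clock is a feedback loop in which CLOCK and BMAL1 (gene Arntl) bind E-box sequences and switch on the Per and Cry genes, whose proteins then block CLOCK and BMAL1. The nuclear receptors REV-ERB (Nr1d1, Nr1d2) and ROR (among them Rora and Rorb) time Arntl itself, and the factors Dbp, Tef, Hlf and Nfil3 carry the rhythm to other genes. The mediobasal hypothalamus holds the arcuate and ventromedial nuclei, which control appetite, energy use and reproduction. It borders the third ventricle with its ependymal cells and tanycytes, and lies behind the suprachiasmatic nucleus, the central clock.

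The deposited values are log2 signals of 35556 probe sets, and 0.322% of the cells had a misplaced decimal point that was restored from the other arrays. Of 19938 genes with a probe set of 1 symbol, 11963 with a mean of at least 5.84 were tested. TSR replicate 2 stood apart: its signals had an interquartile range of 2.25, against 3.07 to 3.27 for the other 5 arrays at ZT13. Its median rank correlation with the arrays whose range was at least 2.5 was 0.88, against 0.981 to 0.986 for those 5. An array was called narrow where that range was under 2.5, which also held for 1 TSR array at ZT1 and 2 CON arrays at ZT19. The arrays were therefore fitted in 2 ways, with limma over all 24 arrays and over the 20 arrays without the narrow ones. In the 20-array fit TSR at ZT13 has 2 arrays (replicates 1 and 3). Many values below are given from the 20-array fit alone, and the 24-array fit can differ from it in size or sign. The tissue label was checked against arcuate and ventromedial genes: Npy, Cartpt, Ghrh, Kiss1 and Tac2 passed the filter on low signals, Pomc, Nkx2-1, Nr5a1 and Rax lay under it, and Agrp had no probe set of its own. With such low signals for the defining genes, the label was only partly borne out by the arrays.

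With all 24 arrays, 50 genes passed an adjusted p of 0.05 (0.418% of those tested), of which 10 were higher in TSR (0.0836%) and 40 were lower (0.334%), and 1635 had an unadjusted p under 0.05 (13.7%). With the 20 arrays, 5492 genes passed (45.9%), 2877 higher in TSR (24%) and 2615 lower (21.9%). The median residual SD was 0.36 log2 units with 24 arrays and 0.11 with 20, and the count of calls depended on the narrow arrays. All 50 genes of the 24-array fit also passed with 20 arrays, in the same direction. Of the 24 of these that are named below, Slc17a7, Per2, Vipr2, Prokr2, Rasd1, Stoml3 and Vaultrc5 kept their call whichever array was left out, and 17 lost it in at least 1 such fit. Cd53, Htr4, Mir505 and Prr12 lost it in 18 of the 24 fits, Prelp in 17, Nwd2 in 15 and Ppp1r1b in 14. The rest of the 17 lost it in 2 to 7. The 6 arrays of ZT13 on their own gave 0 calls in limma, with 1036 genes at an unadjusted p under 0.05. Leaving out TSR replicate 2 alone gave 59 calls (0.493%), 29 higher (0.242%) and 30 lower (0.251%), and 5 arrays of ZT13 on their own, without it, gave 4821. The median difference over all genes tested was -0.18 with 24 arrays, 0.00 with 20 and -0.01 with 24 after quantile normalization. The departure of TSR replicate 2 was not the same for all genes. Its median signal was 6.19, against 5.92 to 5.96 in the other arrays at ZT13. Its mean over pan-neuronal markers was 9.21, against 10.30 and 10.40 in TSR replicates 1 and 3. Over meninges markers it was 7.19, against 6.85 and 6.76. The value of -0.18 is therefore not a correction for a 24-array difference. Quantile normalization of the 24 arrays gave 272 genes higher and 531 lower. Most differences were small: the median absolute difference of the 5492 called genes was 0.41 log2 units, and 35 rose and 31 fell by at least 1 unit. The groups did not overlap for 3259 genes (27.2%): the 3 TSR values lay above all 3 CON values for 332 (2.78%) and below them for 2927 (24.5%), while TSR replicates 1 and 3 alone lay above CON for 3818 (31.9%) and below for 3640 (30.4%). Below, a gene is said to have risen or fallen where it passed with 20 arrays, and a pass with all 24 is stated. List counts and medians below are from the 20-array fit unless 24 arrays are named. The counts stand against the 24% of all genes tested that rose and the 21.9% that fell. The groups did not overlap for any of the 50 genes called with 24 arrays, so non-overlap adds nothing to such a call. In bulk tissue, fewer cells of a type and less RNA per cell cannot be told apart.

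**Figure D1:**
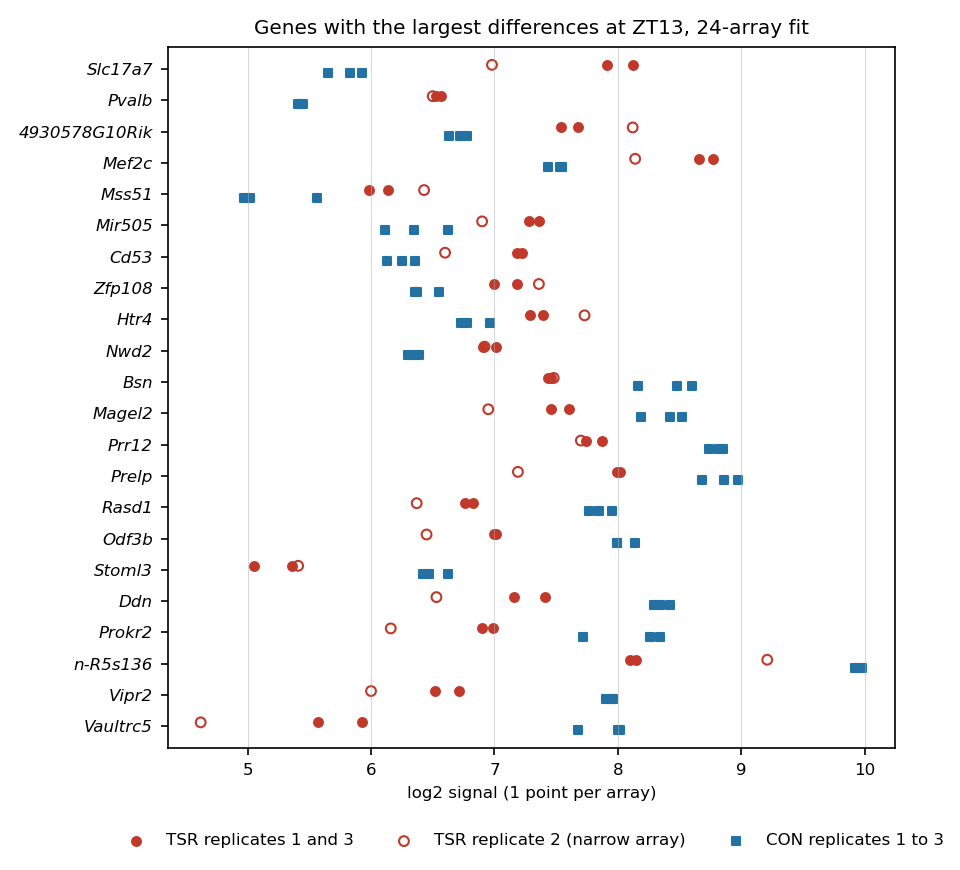
Log2 signal of each array at ZT13 (horizontal axis) for the genes with the largest differences in the 24-array fit whose TSR and CON values do not overlap. Filled circles are TSR replicates 1 and 3, open circles TSR replicate 2 and squares the 3 CON arrays; Slc17a7 is at the top with 6.98 to 8.12 in TSR against 5.65 to 5.93 in CON, and Vaultrc5 at the bottom with 4.62 to 5.93 in TSR against 7.68 to 8.02 in CON.

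Clock genes were lower in the sleep-restricted mice. Of 21 core clock genes tested, 13 fell, 2 rose and 6 did not pass with 20 arrays, and with 24 arrays only Per2 passed, being lower. The median difference over the list was -0.35 with 20 arrays and -0.65 with 24. Per2, a repressor of the loop, read 7.18, 6.95 and 7.10 in TSR mice, against 7.82, 8.04 and 8.05 in CON mice. No TSR value reached the lowest CON value. The log2 difference was -0.90 ± 0.12 (SE) with an adjusted p of 0.00198 in limma over 24 arrays, and -0.83 ± 0.09 with an adjusted p of 1.09e-06 over 20.

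The output factor Dbp had the largest difference of the list with 20 arrays (with 24 it was Bhlhe41, at -1.25), with 8.17, 8.35 and 8.40 in TSR mice against 9.26, 9.42 and 9.51 in CON mice. Here the narrow array lay between the other TSR arrays, and the groups were about 1 log2 unit apart. The difference was -1.11 ± 0.09 with 20 arrays (adjusted p = 1.7e-08) and -1.09 ± 0.25 with 24, which missed the threshold (adjusted p = 0.0565). Nr1d1, which encodes the repressor REV-ERB alpha, read 9.74, 8.91 and 9.73 in TSR mice and 10.51, 10.51 and 10.50 in CON mice. The 3 CON arrays had an SD of 0.01, and replicates 1 and 3 of TSR lay 0.77 ± 0.06 units below them by the 20-array fit. Per1, the period gene that light and glucocorticoids also induce, read 7.86, 7.31 and 7.85 in TSR mice and 8.56, 8.57 and 8.53 in CON mice, a difference of -0.70 ± 0.09 with 20 arrays (adjusted p = 6.22e-06). Bhlhe41, an E-box-binding repressor, read 7.60, 6.4 and 7.80 in TSR mice and 8.34, 8.61 and 8.61 in CON mice. Its difference was -0.82 ± 0.11 with 20 arrays. Both genes kept TSR wholly below CON, as did 24.5% of all genes tested.

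The other 8 genes that fell did so by less. Ciart, a repressor of the loop, differed by -0.58, the output factor Tef by -0.49, and Cry2, the partner of the period proteins, by -0.45. The casein kinase genes Csnk1e and Csnk1d, whose products mark period proteins for turnover, differed by -0.43 and -0.34. Nfil3, which opposes Dbp, differed by -0.38, Per3 by -0.35 and Hlf by -0.26, all with 20 arrays. The activator gene Clock was the opposite case, with 9.75, 8.12 and 9.79 in TSR mice and 9.23, 9.25 and 9.16 in CON mice, so that the narrow array alone lay below CON. It rose by 0.55 ± 0.09 with 20 arrays (adjusted p = 0.000115) and showed a difference of 0.00 with 24. Rorb, an activator receptor, rose by 0.39 with 20 arrays and had a difference of -0.13 with 24, where it did not pass. Arntl (-0.04), Cry1 (-0.09), Nr1d2 (0.10), Rora (0.03), Fbxl21 (0.23) and Bhlhe40 (-0.23) did not pass with 20 arrays.

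**Figure D2:**
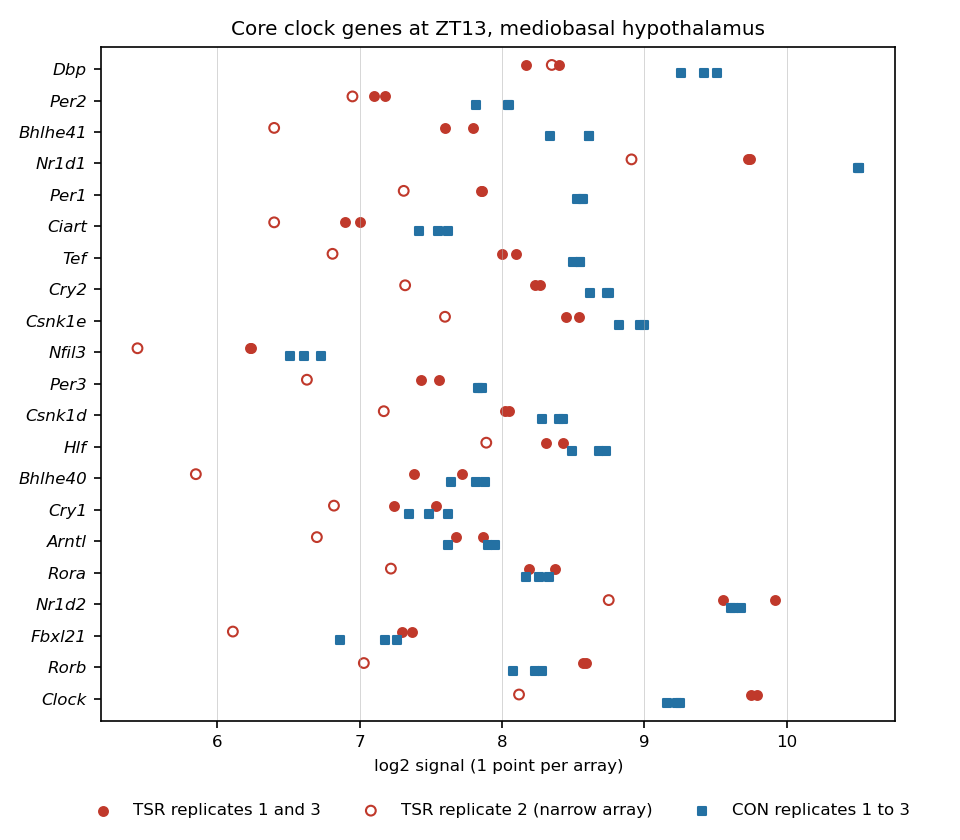
Log2 signal of each array at ZT13 (horizontal axis) for the 21 core clock genes, ordered by the 20-array difference. Filled circles are TSR replicates 1 and 3, open circles TSR replicate 2 and squares the 3 CON arrays; from Dbp at the top down to Hlf every TSR circle lies left of all CON squares, while Clock at the bottom has its filled circles to the right.

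The clock genes were also set out by time of day. Over the arrays that were not narrow, Per2 averaged 7.22 at ZT1, 7.02 at ZT7, 7.14 at ZT13 and 6.98 at ZT19 in TSR mice. In CON mice it averaged 6.98 at ZT1, 7.59 at ZT7, 7.97 at ZT13 and 7.12 at ZT19, the last from 1 array. CON mice thus had their highest Per2 mean at ZT13, and TSR means lay between 6.98 and 7.22 at all 4 times. Dbp averaged 8.67, 8.44, 8.29 and 8.20 at the 4 times in TSR mice, against 8.34, 9.24, 9.40 and 8.56 in CON mice. Nr1d1 averaged 9.97 in TSR mice against 10.78 in CON mice at ZT7, and 9.73 in TSR mice against 10.51 in CON mice at ZT13, so its gap was about as large at ZT7. These averages over times are descriptions without a test, and no clock gene had an effect at ZT13 that differed from that at ZT7 when all 24 arrays were fitted. With 20 arrays the effect of 4 clock genes differed between those times: higher at ZT13 for Rorb and Fbxl21, lower at ZT13 for Tef and Bhlhe40.

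**Figure D3:**
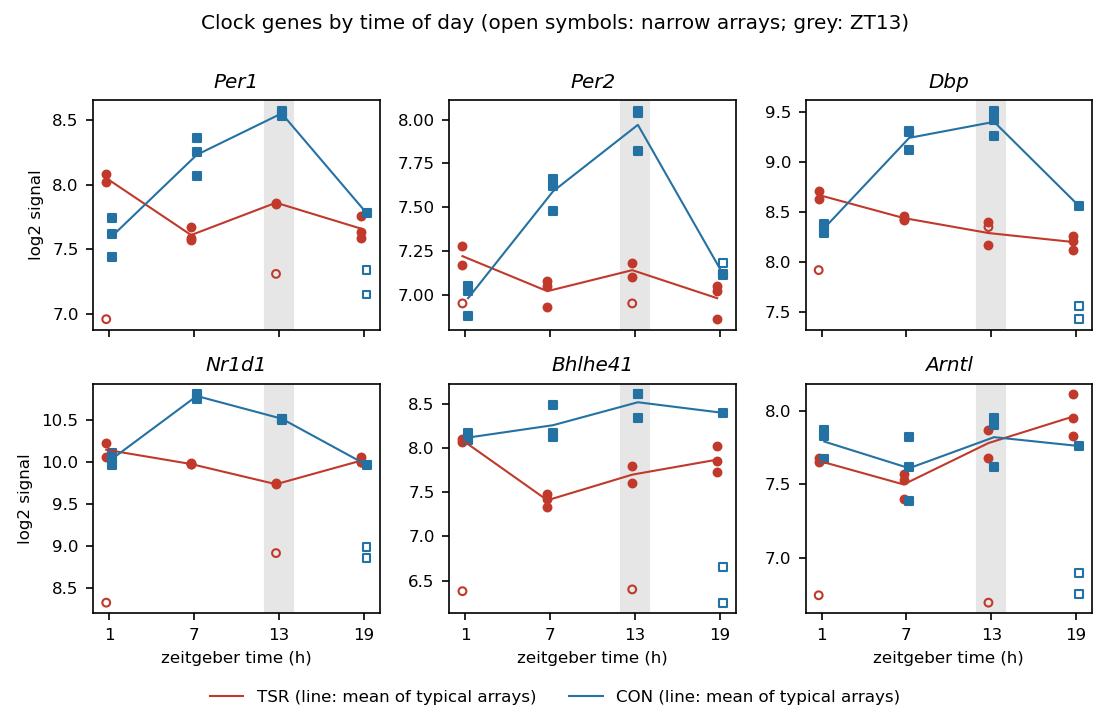
Log2 signal (vertical axis) of 6 clock genes by zeitgeber time in hours (horizontal axis), 1 symbol per array, with TSR as circles left of CON as squares, narrow arrays open, and lines joining the means of the other arrays. In the grey band at ZT13 the Per1, Per2, Dbp, Nr1d1 and Bhlhe41 values of TSR lie below those of CON, as Per2 shows with 6.95 to 7.18 in TSR against 7.82 to 8.05 in CON, while the filled Arntl circles overlap the squares.

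The promoters of clock genes that fell were examined for the E-box CACGTG, the letters that CLOCK and BMAL1 bind, and for the variant CACGTT, searched on both strands (these cannot overlap each other). RefSeq promoters of GRCm38.p6, running from 250 bases before to 50 after each start, were on hand for 19 of 24 listed clock genes, and Per2 was not among them. Of 11 clock genes that fell and had a promoter, 4 held CACGTG (Per1, Bhlhe41, Ciart and Tef), as did 1 of 7 that did not fall (Cry1). CACGTT was in 2 of the 11 (Cry2 and Nr1d1) and 2 of the 7 (Cry1 and Rorb). A clock gene was counted if any of its promoters held the motif, and the Per1 promoter at chr11:69099902-69100201 holds no CACGTG. The shares that follow count single promoters, so they are not like for like with the counts of genes. Over all promoters 7.15% held CACGTG and 4.68% held CACGTT. The share with CACGTG was 10.2% among promoters of all genes that rose and 9.53% among those of all genes that fell, against 9.78% for genes tested. A match describes letters and is not evidence of binding. The promoters below are those of the clock genes that fell and hold CACGTG, in the gene's own direction, with the motif in capitals: Per1 at chr11:69098699-69098998 (+ strand), Bhlhe41 at chr6:145865371-145865670 (- strand), Ciart at chr3:95882179-95882478 (- strand), which holds 3 copies, and the promoters of both Tef starts at chr15:81802423-81802722 and chr15:81811164-81811463 (+ strand).
Per1: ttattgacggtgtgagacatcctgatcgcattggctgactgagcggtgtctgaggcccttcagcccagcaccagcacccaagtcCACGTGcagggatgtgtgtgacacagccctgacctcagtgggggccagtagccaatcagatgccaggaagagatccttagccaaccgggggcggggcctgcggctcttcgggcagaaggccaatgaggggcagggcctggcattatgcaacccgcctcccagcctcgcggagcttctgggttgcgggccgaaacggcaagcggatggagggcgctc
Bhlhe41: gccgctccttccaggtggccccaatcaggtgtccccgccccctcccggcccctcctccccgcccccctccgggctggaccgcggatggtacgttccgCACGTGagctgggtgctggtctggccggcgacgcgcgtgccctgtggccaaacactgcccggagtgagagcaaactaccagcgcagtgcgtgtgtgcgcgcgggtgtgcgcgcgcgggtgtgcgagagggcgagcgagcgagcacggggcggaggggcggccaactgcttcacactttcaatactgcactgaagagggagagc
Ciart: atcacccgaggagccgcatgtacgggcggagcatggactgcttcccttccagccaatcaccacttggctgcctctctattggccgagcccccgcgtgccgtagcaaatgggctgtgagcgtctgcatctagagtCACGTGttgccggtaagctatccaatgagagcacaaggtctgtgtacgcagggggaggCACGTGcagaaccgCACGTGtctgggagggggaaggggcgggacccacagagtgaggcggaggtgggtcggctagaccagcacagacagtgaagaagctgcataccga
Tef, upstream start: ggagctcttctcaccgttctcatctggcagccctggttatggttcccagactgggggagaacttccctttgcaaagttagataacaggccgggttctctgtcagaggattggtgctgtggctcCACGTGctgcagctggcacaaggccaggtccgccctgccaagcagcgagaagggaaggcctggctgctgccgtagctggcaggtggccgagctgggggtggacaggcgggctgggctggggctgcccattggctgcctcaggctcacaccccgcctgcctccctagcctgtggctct
Tef, downstream start: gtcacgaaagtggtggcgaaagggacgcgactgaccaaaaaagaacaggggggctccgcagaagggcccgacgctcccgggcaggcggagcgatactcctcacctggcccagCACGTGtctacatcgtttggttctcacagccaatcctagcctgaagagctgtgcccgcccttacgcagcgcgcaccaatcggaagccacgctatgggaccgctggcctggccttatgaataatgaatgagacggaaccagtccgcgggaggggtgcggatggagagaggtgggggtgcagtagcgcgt

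Markers of the suprachiasmatic nucleus fell with the clock genes. Of 13 tested, 8 fell and none rose with 20 arrays, at a median of -0.47, and 3 fell with 24 arrays too. Vipr2, the receptor through which suprachiasmatic neurons receive vasoactive intestinal peptide, read 6.52, 6.0 and 6.71 in TSR mice and 7.95, 7.96 and 7.90 in CON mice. It differed by -1.53 ± 0.20 with 24 arrays (limma adjusted p = 0.00147) and by -1.32 ± 0.12 with 20. Prokr2, the receptor of prokineticin 2, a signal sent out by that nucleus, read 6.90, 6.16 and 6.99 in TSR mice and 7.72, 8.34 and 8.26 in CON mice. It differed by -1.42 ± 0.21 with 24 arrays (adjusted p = 0.00344). Rasd1, a small G protein induced by dexamethasone, read 6.76, 6.37 and 6.83 in TSR mice and 7.85, 7.77 and 7.95 in CON mice, a difference of -1.20 ± 0.17 with 24 arrays (adjusted p = 0.00265). In none of the 3 did any TSR array reach a CON array, as in all 50 genes called with 24 arrays. Over all genes tested, the TSR values all lay below CON for 24.5%. The transcription factor Zfhx3 fell by 0.78 and the hormone gene Avp by 0.38, both with 20 arrays. The mean signal of the 13 markers was 7.16, 6.61 and 7.21 in the TSR arrays and 7.67, 7.72 and 7.71 in the CON arrays. That lower mean stands beside the clock result, and its part in it was not tested.

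Paraventricular and supraoptic genes moved the same way: 8 of 11 fell and none rose with 20 arrays, at a median of -0.46. Trh, which encodes thyrotropin-releasing hormone, read 9.56, 7.65 and 9.71 in TSR mice and 10.45, 10.66 and 10.75 in CON mice. It fell by 0.98 ± 0.10 with 20 arrays and did not pass with 24 (adjusted p = 0.169). Magel2, an imprinted gene of the Prader-Willi region, read 7.46, 6.95 and 7.60 in TSR mice and 8.52, 8.19 and 8.42 in CON mice. Its TSR arrays all lay below the CON arrays, and it passed with 24 arrays at -1.04 ± 0.19 (adjusted p = 0.0243). Oxt, the oxytocin gene, fell by 0.53, Otp, a factor that specifies these neurons, by 0.66, and the imprinted Nnat by 0.46. Among all 15 imprinted genes tested 5 fell and 2 rose, at a median of -0.13. Dlk1 fell by 0.97, and the long non-coding RNA gene Rian rose by 0.87.

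Arcuate appetite genes split in direction, with 5 of 19 higher and 6 lower with 20 arrays and none passing with 24. Pcsk1, the convertase that cuts prohormones into peptides, read 9.15, 7.0 and 9.28 in TSR mice and 8.05, 8.21 and 8.12 in CON mice, and rose by 1.09 ± 0.08 with 20 arrays (adjusted p = 1.65e-08). The cannabinoid receptor gene Cnr1 rose by 0.96 and the melanocortin receptor gene Mc4r by 0.74. In all 3 genes, replicates 1 and 3 lay above every CON array. Sst, the somatostatin gene, read 11.65, 10.83 and 11.69 in TSR mice and 12.45, 12.46 and 12.47 in CON mice, and fell by 0.79 ± 0.05. The appetite-suppressing Cartpt fell by 0.32 and the appetite-stimulating Npy did not pass (-0.12, adjusted p = 0.614). Of 16 arcuate and ventromedial markers 1 rose and 2 fell, at a median of -0.13. Fezf1, a ventromedial factor, fell by 0.69, Th, the rate-limiting enzyme gene of dopamine synthesis, fell by 0.22, and Tac2 of arcuate reproductive neurons did not pass (-0.34, adjusted p = 0.0526). Among 9 lateral hypothalamic and arousal genes 2 rose and 2 fell: the orexin receptor gene Hcrtr2 rose by 0.89, the factor gene Lhx9 by 0.73, and the histamine receptor gene Hrh3 fell by 0.69. The peptide genes Crh, Vip, Hcrt and Pmch and the leptin receptor gene Lepr lay under the filter on low signals.

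Genes of other forebrain regions included the largest rise. Slc17a7, the vesicular glutamate transporter of cortical, hippocampal and thalamic neurons, read 8.12, 6.98 and 7.91 in TSR mice and 5.65, 5.83 and 5.93 in CON mice. Every TSR array exceeded every CON array by over 1 log2 unit. The difference was 1.86 ± 0.21 with 24 arrays (adjusted p = 0.000302) and 2.21 ± 0.12 with 20. The neuronal transcription factor Mef2c read 8.66, 8.14 and 8.77 in TSR mice and 7.43, 7.53 and 7.55 in CON mice, and rose by 1.02 ± 0.17 with 24 arrays (adjusted p = 0.00923). Across 14 cortical and thalamic glutamatergic markers, Rorb included, 7 rose and 2 fell with 20 arrays, at a median of 0.23. The transcription factors Foxp2 and Lmo3 rose by 0.97 and 0.88. The mean signal of these 14 markers was 8.13, 7.39 and 8.19 in the TSR arrays and 7.69, 7.78 and 7.79 in the CON arrays, and its part in other results was not tested.

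Cholinergic genes rose with them: 5 of 8 rose and 2 fell, at a median of 0.48. Slc5a7, the choline transporter that defines cholinergic neurons, read 7.81, 7.44 and 8.20 in TSR mice and 6.06, 6.19 and 6.20 in CON mice. The groups did not overlap. It rose by 1.86 ± 0.13 with 20 arrays (adjusted p = 4.66e-09) and missed the threshold with 24 (1.67 ± 0.41, adjusted p = 0.0704). Slc18a3, which loads acetylcholine into vesicles, was 0.91 higher, and Chrm2, a muscarinic receptor gene, was 0.66 higher. Ache, whose enzyme breaks acetylcholine down, fell by 0.80.

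Of 11 GABA neuron and Dlx genes 6 fell and 1 rose, at a median of -0.40. The one that rose was Pvalb, the calcium-binding protein of fast-spiking interneurons, with 6.57, 6.50 and 6.53 in TSR mice and 5.45, 5.41 and 5.43 in CON mice. Its 3 TSR arrays agreed closely, the narrow one included. It passed with 24 arrays at 1.10 ± 0.20 (adjusted p = 0.0243). Its CON mean of 5.43 lay under the filter of 5.84, and its mean over all arrays was 5.85. It thus passed the filter only through its higher arrays, TSR at ZT13 among them. The vesicular GABA transporter gene Slc32a1 fell by 0.65 and the forebrain factor gene Dlx2 by 0.68. Among 14 striatal and dopamine receptor genes 5 fell and 2 rose. Ppp1r1b, the dopamine-regulated phosphatase inhibitor DARPP-32, read 6.97, 7.29 and 6.99 in TSR mice and 7.99, 7.77 and 7.85 in CON mice. It fell in both fits, by 0.79 ± 0.16 with 24 arrays (adjusted p = 0.0373). Drd3, a dopamine receptor gene, was higher by 0.64, the adenylyl cyclase gene Adcy5 fell by 0.63, and Tac1, the substance P precursor gene, rose by 0.37 with 20 arrays. Of 18 pan-neuronal markers 7 fell and 3 rose, among them the neuronal splicing factor Rbfox3, which fell by 0.78, and Elavl4, which rose by 0.43. The mean of the pan-neuronal markers was 10.30, 9.21 and 10.40 in the TSR arrays and 10.38, 10.48 and 10.50 in the CON arrays.

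Genes switched on by neuronal activity were mostly lower. Of 17 immediate early genes tested 10 fell and 1 rose with 20 arrays, at a median of -0.37, and none passed with 24. Egr1, an activity-induced transcription factor, read 6.82, 6.81 and 6.86 in TSR mice and 7.37, 7.21 and 7.18 in CON mice. The groups did not overlap, and the difference was -0.41 ± 0.09 with 20 arrays (adjusted p = 0.00111). The AP-1 factor gene Jund fell by 0.81 and the orphan receptor gene Nr4a1 by 0.54. Homer1, a synaptic scaffold gene with a short form that rises with waking, was the exception: it read 8.78, 6.98 and 8.72 in TSR mice and 7.81, 7.96 and 8.0 in CON mice, and rose by 0.83 ± 0.08 with 20 arrays. Fos lay under the filter on low signals. Among 15 transcripts known to follow sleep need or temperature 3 rose and 4 fell, at a median of 0.00. Besides Homer1, the transferrin receptor gene Tfrc rose by 0.85 and the cold-inducible RNA-binding protein gene Rbm3 by 0.35 with 20 arrays. Its relative Cirbp did not pass (-0.07, adjusted p = 0.568).

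Stress pathways showed no common direction. Among 22 endoplasmic reticulum chaperones and stress factors 6 rose and 6 fell, against 24% and 21.9% of all genes tested. The co-chaperone gene Dnajb9 rose by 0.55 and the chaperone gene Hsp90b1 by 0.39 with 20 arrays, Hyou1 fell by 0.44, and the central chaperone gene Hspa5 did not pass (0.10, adjusted p = 0.273). Of 18 cytosolic heat shock genes 4 rose and 3 fell, with Dnajb1 lower by a difference of -0.68. Of 17 glucocorticoid-responsive genes 3 rose and 6 fell. Fkbp5, a co-chaperone that glucocorticoids induce, did not pass, with 7.36, 6.24 and 7.31 in TSR mice and 7.35, 7.30 and 7.26 in CON mice. The kinase gene Sgk1 did not pass either (0.23, adjusted p = 0.0818), and the mineralocorticoid receptor gene Nr3c2 rose by 0.38.

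Cholesterol synthesis genes rose more often than they fell in the 20-array fit. Of 20 tested 9 rose and 1 fell with 20 arrays, at a median of 0.18, and none passed with 24. With 24 arrays the median was -0.13, against -0.18 over all genes tested. The 3 TSR values lay above all CON values for 1 gene and below them for 3. Stard4, a cholesterol carrier, read 7.90, 6.71 and 7.85 in TSR mice and 7.09, 7.22 and 7.13 in CON mice, so replicates 1 and 3 lay above CON and the narrow array below. It rose by 0.73 ± 0.08 with 20 arrays (adjusted p = 1.63e-06). The pathway enzyme genes Idi1, Cyp51 and Hsd17b7 rose by 0.70, 0.63 and 0.39 with 20 arrays. Of 19 fatty acid oxidation genes 4 rose and 2 fell, at a median of 0.11 (-0.1 with 24 arrays), with the dehydrogenase gene Acadm higher by 0.45.

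Among glia, myelin genes moved in both directions, with 6 of 17 higher and 4 lower. Aspa, the aspartoacylase of oligodendrocytes, read 7.85, 6.63 and 7.96 in TSR mice and 6.79, 7.03 and 6.89 in CON mice, and rose by 1.01 ± 0.11 with 20 arrays. The myelin lipid enzyme gene Ugt8a rose by 0.97, the lineage factor gene Sox10 fell by 0.61, and Mbp, a main myelin protein gene, did not pass (-0.01, adjusted p = 0.873). Of 14 precursor markers 5 rose and 2 fell, with the matrix proteoglycan gene Vcan higher by 0.85 and Olig1 lower by a difference of -0.51. Of 20 astrocyte markers 4 rose and 7 fell. The water channel gene Aqp4 read 9.47, 7.95 and 9.58 in TSR mice and 8.69, 8.70 and 8.56 in CON mice, and rose by 0.87 ± 0.08. The fatty acid binding protein gene Fabp7 rose by 0.41, the astrocyte factor gene Sox9 fell by 0.56, and Gfap did not pass (-0.16, adjusted p = 0.37).

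Tanycyte and ependymal markers fell more often than they rose. Of 17 tested 9 fell and 1 rose with 20 arrays, at a median of -0.48, and 2 fell with 24. Stoml3, a membrane protein of cilia, read 5.36, 5.41 and 5.05 in TSR mice and 6.42, 6.62 and 6.47 in CON mice. All TSR arrays lay at least 1 unit below CON, and the difference was -1.23 ± 0.18 with 24 arrays (adjusted p = 0.00344). Odf3b, of the outer dense fibre family, was chosen for its size alone and read 7.0, 6.45 and 7.01 in TSR mice against 8.14, 7.99 and 7.99 in CON mice (-1.22 ± 0.21 with 24 arrays, adjusted p = 0.0102). The ciliated-cell gene Ccdc153 fell by 0.65, and the tanycyte receptor gene Gpr50 rose by 0.81. Vessel markers did not share a direction (2 of 14 higher, 3 lower). The lipid transfer protein gene Pltp read 9.75, 7.99 and 9.80 in TSR mice and 10.77, 10.82 and 10.86 in CON mice and fell by 1.04 ± 0.05. Of 11 microglia markers 2 rose and 1 fell. Of 8 meninges markers 2 rose and none fell, where 24% of all genes tested rose and 21.9% fell.

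Choroid plexus and plasma protein genes had 3 of 7 higher and none lower, at a median of 0.33. Ttr, the thyroid hormone carrier made by choroid plexus and liver, read 6.58, 5.89 and 6.73 in TSR mice and 5.62, 5.25 and 5.48 in CON mice. Its groups did not overlap, and it rose by 1.20 ± 0.15 with 20 arrays (adjusted p = 3.57e-06). The albumin gene Alb rose by 1.10 and the antitrypsin gene Serpina1c by 1.21, while the apolipoprotein gene Apoa1 did not pass (0.33, adjusted p = 0.103). The mean of the 7 genes was 7.07, 6.64 and 7.26 in the TSR arrays and 6.59, 6.65 and 6.63 in the CON arrays.

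Receptor and channel genes moved in both directions. Among GABA-A and glutamate receptor subunits 11 of 30 rose and 4 fell, at a median of 0.18 with 20 arrays and -0.24 with 24. Gabrb2, a GABA-A receptor subunit, read 10.64, 9.79 and 10.83 in TSR mice and 9.86, 9.89 and 9.96 in CON mice, and rose by 0.83 ± 0.08 with 20 arrays. The kainate receptor gene Grik2 rose by 0.67 and Grik5 fell by 0.81. Of 89 voltage-gated and potassium channel genes 19 rose and 21 fell. Sodium channel gene Scn7a (0.87) and potassium channel gene Kcnh7 (0.84) rose most. Of 72 respiratory chain subunits 16 rose and 19 fell, with the cytochrome oxidase gene Cox6a1 lower by a difference of -0.69. Over all genes tested 24% rose and 21.9% fell, and the channel and respiratory chain counts lay near those shares.

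Cytosolic ribosomal protein genes leaned down, with 24 of 53 lower and 5 higher with 20 arrays, at a median of -0.22. Rpl10a read 9.86, 8.56 and 9.92 in TSR mice and 10.53, 10.66 and 10.65 in CON mice, and fell by 0.72 ± 0.06. Rpl30 was the opposite case and rose by 0.72. Members of such families have near-identical copies in the genome, so probe sets may share signal between copies.

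Some of the largest falls were in small structured RNAs. All 7 tested RNAs of the 5S ribosomal, vault and Y class, which includes related polymerase III transcripts, fell with 20 arrays, at a median of -1.07, and 2 of them passed with 24. Here too probe sets may share signal between copies, so the members need not be separate measurements. Vaultrc5, an RNA of the vault particle, read 5.57, 4.62 and 5.93 in TSR mice and 7.68, 8.0 and 8.02 in CON mice. The groups were over 1.5 units apart, and the difference was -2.53 ± 0.39 with 24 arrays (adjusted p = 0.00455). The TSR mean of Vaultrc5 at ZT13, 5.37, lay under the filter of 5.84, and its mean over all arrays was 6. Vaultrc5 thus passed the filter only through its higher arrays, CON at ZT13 (mean 7.9) among them. n-R5s136, a 5S ribosomal RNA gene, read 8.10, 9.21 and 8.15 in TSR mice and 9.92, 9.94 and 9.98 in CON mice, a difference of -1.46 ± 0.25 with 24 arrays (adjusted p = 0.0113). Its mean without narrow arrays was lower in TSR at the other times too. It was 8.27 against 10.51 in CON at ZT1, 8.37 against 9.68 at ZT7, and 7.96 against 9.60 (1 array) at ZT19. Rny1, a Y RNA, fell by 2.35 ± 0.28 with 20 arrays. Of 28 small nucleolar RNA genes 5 rose and 7 fell, with Snord57 lower by a difference of -0.96 and Snord53 higher by 0.71.

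A pair of microRNA genes was among the genes named by size. The Mir505 probe set read 7.36, 6.90 and 7.28 in TSR mice and 6.62, 6.35 and 6.11 in CON mice, and passed with 24 arrays at 0.82 ± 0.18 (adjusted p = 0.0421). The Mir99a probe set rose by 1.11 ± 0.11 with 20 arrays. These probe sets are named by gene and were read from RNA labelled with a whole-transcript kit. They do not tell the arms apart, and whether the mature microRNAs changed was not tested. Both mature arms of each are shown for reference from RefSeq (GRCm38.p6), with the seed, bases 2 to 8, in capitals. No seed is shared among the 4.
mmu-miR-505-3p: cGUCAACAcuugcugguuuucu
mmu-miR-505-5p: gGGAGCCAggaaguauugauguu
mmu-miR-99a-3p: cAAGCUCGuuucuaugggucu
mmu-miR-99a-5p: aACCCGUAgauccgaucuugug

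Several further genes passed with all 24 arrays, and each of them lost its call in at least 1 fit that left out an array. Among those that rose were Cd53, a tetraspanin of white blood cells (0.76), Htr4, a serotonin receptor (0.65), Mss51, a mitochondrial protein gene (1.0), Zfp108, a zinc-finger gene (0.75), and the unannotated 4930578G10Rik (1.07). Among those that fell were Prelp, a matrix proteoglycan (-1.10), and Bsn, the presynaptic scaffold Bassoon (-0.96). Bsn was nearly the same in all TSR arrays, at 7.43, 7.48 and 7.46, against 8.16, 8.60 and 8.48 in CON mice. Nwd2 (0.60) and Prr12 (-1.04) also passed.

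The largest differences of the 20-array fit added genes that did not pass with 24. Sema3a, an axon guidance ligand, read 7.73, 6.65 and 7.74 in TSR mice and 6.25, 6.42 and 6.47 in CON mice, and rose by 1.36 ± 0.12. Elavl2, a neuronal RNA-binding protein gene (1.15), Ano3, of the anoctamin family (1.15), Dcun1d1, a neddylation factor gene (1.16), Lix1 (1.16), Mettl4, of the methyltransferase-like family (1.23), and the protocadherin gene Pcdhb22 (1.14) also rose. Among the falls were the transcripts AY036118 (-2.35), Gm10874 (-1.96), Gm10644 (-1.72), A530032D15Rik (-1.54), 1700007K13Rik (-1.22) and Fam219aos (-1.12). TSR replicate 2 departed most from the other arrays here: AY036118 read 8.26, 11.76 and 8.57 in TSR mice, against 10.51, 10.93 and 10.88 in CON mice. Gm10874 read 6.89, 11.84 and 6.81 in TSR mice, against 8.88, 8.80 and 8.76 in CON mice. In both, the narrow array was above CON and the other TSR arrays were below it.

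**Figure D4:**
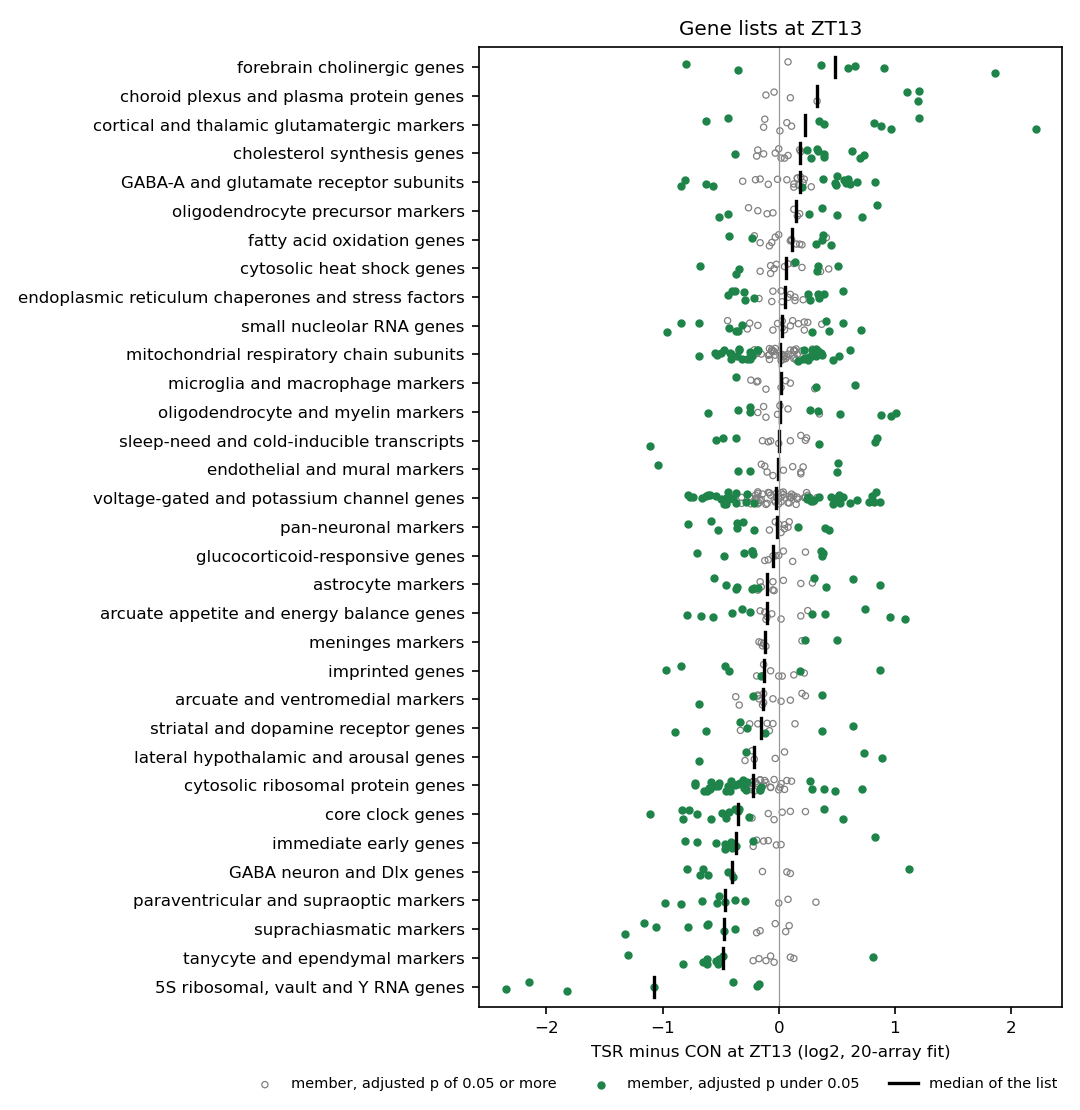
TSR minus CON at ZT13 in log2 units from the 20-array fit (horizontal axis) for every tested member of each gene list with at least 5 tested genes, ordered by list median (black bar). Filled points passed an adjusted p of 0.05 and open points did not; the 5S ribosomal, vault and Y RNA list lies lowest at a median of -1.07, and the cholinergic list highest at 0.48.

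ZT7 is the time nearest to the end of daily restriction, and its arrays are separate from those of ZT13. With 20 arrays, 3195 genes passed at ZT7 (26.7%), and 2190 passed at both times: 39.9% of the ZT13 calls and 68.5% of the ZT7 calls. Of the 2190, 2092 had the same sign and 98 the opposite. The test of the difference between the 2 effects called 1708 genes with 20 arrays (14.3%), of which 914 were higher at ZT13 (7.64%) and 794 lower (6.64%), and 4 with 24 arrays (0.0334%), of which 1 was higher (0.00836%) and 3 lower (0.0251%). Of those called at ZT13 only, 1090 also passed that test of the difference.

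The 4 genes that passed with all 24 arrays had different effects at the 2 times. Slc17a7 differed by 2.21 at ZT13 against 0.12 at ZT7 with 20 arrays, and the 24-array difference between effects was 1.74 (adjusted p = 0.0322). Ddn, which encodes dendrin, a protein of dendrites, read 7.16, 6.53 and 7.41 in TSR mice and 8.29, 8.34 and 8.42 in CON mice at ZT13. It fell by 1.07 at ZT13 and rose by 0.83 at ZT7 with 20 arrays, and the effects differed by -2.14 with 24 (adjusted p = 0.00571). Without narrow arrays, the CON mean of Ddn was 8.35 at ZT13, against 7.16, 6.51 and 6.79 at ZT1, ZT7 and ZT19 (the last from 1 array). Its TSR means were 6.80, 7.34, 7.28 and 7.11 at ZT1, ZT7, ZT13 and ZT19, so CON at ZT13 was the group that stood apart. Ppp1r1b, described above, rose by 0.81 at ZT7, and the 24-array difference between its effects was -1.60 (adjusted p = 0.00571). Egr1 rose by 0.80 at ZT7, and its effects differed by -1.23 with 24 arrays (adjusted p = 0.0177).

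Other differences between the times passed with 20 arrays alone. Slc5a7 rose by less at ZT13: it rose by 1.86 at ZT13 against 3.16 at ZT7, a difference of -1.31 between effects (adjusted p = 6.93e-05). In all, 6 of 8 cholinergic genes and 9 of 14 striatal genes had an effect lower at ZT13, and no member of either list had one that was higher. Meis2, a striatal transcription factor, differed by 0.14 at ZT13, where it did not pass, and rose by 2.09 at ZT7. Alb and Ttr rose at ZT13 and fell at ZT7, by 0.61 and 0.44, with effects that differed by 1.71 and 1.64. Immediate early genes had 5 of 17 effects lower at ZT13 and none higher. Dnajb1, a heat shock co-chaperone, fell at ZT13 and did not pass at ZT7 (0.28), with effects that differed by -0.96. Serpina1c (2.42), the Mir99a gene (1.33) and the thyroid hormone binding protein gene Crym (-1.51) also had effects that differed. Among suprachiasmatic markers Vipr2 fell at both times (-1.32 at ZT13 and -1.23 at ZT7), and its effects differed by -0.09, which did not pass (adjusted p = 0.755).

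**Figure D5:**
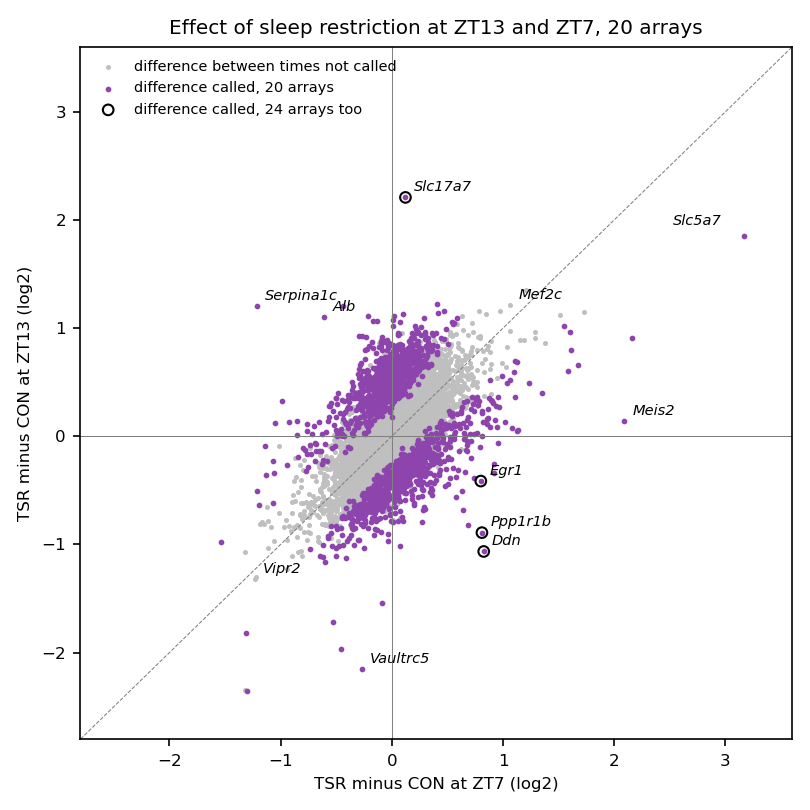
TSR minus CON in log2 units from the 20-array fit at ZT13 (vertical axis) against ZT7 (horizontal axis), 1 point per gene for 11963 genes, with the dashed line marking equal effects. Coloured points are the 1708 genes whose effects differed between the times and circles the 4 that also differed with 24 arrays; Slc17a7 stands at 2.21 on the ZT13 axis and 0.12 on the ZT7 axis.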

How the data were processed

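Total RNA of mediobasal hypothalamus, labelled with an Affymetrix whole-transcript kit, was measured on 24 arrays, per the labels' protocols. The deposited table holds log2 signals, made by the authors with Affymetrix Expression Console per the submitters' processing notes; the summarization, normalization and build are not given in the labels or files, and their effect could not be undone. Of 853344 cells, 2749 with a misplaced decimal (629 in the 6 arrays of ZT13) were restored by comparison with the other arrays and 64 that could not be read were set to missing. Genes were named from probe sets with 1 symbol (21789, with 1621 of several symbols left out), taking the probe set with the highest mean per gene. Genes under the 40th percentile of mean signal (5.84) were left out. Group means of 8 groups were fitted with limma 3.58.1 in R 4.3.3 (eBayes with trend), with Benjamini-Hochberg adjustment over 11963 genes and a threshold of 0.05. Exact permutation of 3 against 3 arrays cannot give a p below 0.1. Fitting was tested on simulated data whose noise was independent and, for each gene, of equal spread on every array. No narrow array was simulated, so that test cannot show how either fit behaves with such arrays or with deviations shared across an array. Same-numbered TSR and CON arrays deviated from their group means with correlations of -0.43, -0.37 and 0.38. The narrow TSR replicate 2 shifts the TSR mean behind all of these. They therefore cannot decide whether replicate numbers pair the mice, and the main fits used no pairing. The number of arrays limits the precision. The members and gene lists were chosen with earlier results of these data known. The genes named were the 12 largest rises and falls past the threshold with non-overlapping groups in each fit, the core clock genes, genes from the 4 largest differences of each other list, the largest differences between ZT13 and ZT7, and a fixed set of 30 genes. Scan dates are not given, so array batches were not tested. Alternatives in normalization, filter, moderation, array weights, decimals, replicate block and left-out arrays were run.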

Additional observations from a re-analysis of the deposited data

Results flagged for a closer look

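The effect of sleep restriction differed between ZT13 and ZT7 for 4 genes by the test of the difference itself (limma, 24 arrays, adjusted over 11963 genes). Ddn had a difference between effects of -2.14 (adjusted p = 0.00571) and Ppp1r1b one of -1.60 (adjusted p = 0.00571). Egr1 had a difference of -1.23 (adjusted p = 0.0177). Slc17a7 went the other way, at 1.74 (adjusted p = 0.0322). No explanation was tested for any of them.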

How the results depend on the processing

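The count of 50 genes called at ZT13 moved by over 1.5 times with the arrays used: it was 5492 without the 4 narrow arrays, 4821 with the 5 typical arrays of ZT13 alone, and 803 after quantile normalization (5922 with both changes). With the 6 arrays of ZT13 alone limma called 0 genes, and 1036 had an unadjusted p under 0.05. It was 15 with no filter, 20 with a filter at the 60th percentile and 8499 with array weights, whose fit stopped before converging. Leaving out 1 array gave 7 to 415 genes. The count moved for 19 of 24 arrays, all but 2 TSR arrays of ZT1 (replicates 1 and 2), TSR replicate 2 of ZT13 and CON replicates 2 and 3 of ZT19. At ZT13 it was 9 and 23 without TSR replicates 1 and 3, and 10, 8 and 7 without CON replicates 1, 2 and 3. With a replicate block it was 28, and 5548 without the narrow arrays too, and whether the numbers pair the mice is not known. The 4 genes whose effects differed between ZT13 and ZT7 became 1708 without the narrow arrays, 920 with the 11 typical arrays of those times, 16 after quantile normalization (2349 with both), 1 with the 60th percentile filter, 4502 with array weights and 1732 with the block and no narrow arrays. Leaving out 1 array gave 2 to 15. Genes with non-overlapping groups numbered 3259, and 7458 without TSR replicate 2. Robust moderation, no trend, mean probe sets and the handling of decimals kept the first count within 1.5 times. Rorb (0.39), Tac1 (0.37), Hsp90b1 (0.39), Idi1 (0.70) and Rbm3 (0.35) had the opposite sign without the narrow arrays. For a lone pair of TSR arrays the spread was taken from all groups. The causes of these changes were not tested.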
